A study of Homo sapiens with 4 samples.

Results

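A group of 7 zinc finger genes on the short arm of chromosome 16, in band 16p13.3, was examined for binding of TRIM24 and TRIM28 in LNCaP cells, a human prostate cancer line that responds to androgen. The 7 genes, of 20176 protein-coding genes in the annotation, were ZNF205, ZNF213, ZNF200, ZNF263, ZNF75A, ZNF174 and ZNF597, in their order along the chromosome. They were chosen by TRIM28 signal, because several of the strongest TRIM28 sites in last coding exons lie among them, so the strength of those sites is a description and not a finding. Each gene was taken with its body and 5 kb on either side, and the genes span 331 kb of the hg19 assembly.

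The data were 4 ChIP-seq samples, 1 per condition. TRIM24 was precipitated with an antibody to the HA tag from LNCaP cells that stably express HA-TRIM24, and TRIM28 with an antibody to the protein itself. All cells carry the label WT and were kept for 3 days in medium with 5% charcoal-stripped serum, which removes steroid hormones, before 16 h with either ethanol, the solvent, or 10 nM R1881, a synthetic androgen. The labels name no tag for the cells of the TRIM28 samples, whereas the study's description has both proteins profiled in HA-TRIM24 cells. HA-TRIM24 is an introduced protein, so its sites are those of the tagged form. No condition was repeated, so no difference between conditions could be tested here. The 95% intervals given are exact Poisson intervals, or exact binomial ones for ratios, and cover the error of counting tags only. No input library was analysed here.

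C2H2 zinc finger proteins bind DNA through rows of short finger modules, each held by 2 cysteines and 2 histidines around a zinc ion. Many carry a KRAB domain near their start, which recruits TRIM28, a corepressor also called KAP1 that brings histone methyltransferases to chromatin. Among the genes here, ZNF205 and ZNF75A encode KRAB proteins, ZNF263 and ZNF213 encode proteins with both a KRAB domain and a SCAN domain, which pairs such proteins with each other, and ZNF174 encodes a SCAN protein. ZNF597 is known as an imprinted gene. TRIM28 is known to bind the genes of zinc finger proteins themselves, over the exon at their 3′ end that encodes the fingers. TRIM24 is a relative of TRIM28 that reads histone tails and serves as a coactivator of the androgen receptor.

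Strong TRIM28 sites occupied the finger-coding last exons of ZNF75A, ZNF174 and ZNF200, and a weaker one that of ZNF263. Their sequences with R1881 are shown because they carry the binding described here. They are given from the GRCh37 genome, which is the sequence of hg19, 5′ to 3′ on the coding strand of the gene, with capitals for bases inside a C2H2 finger and lower case for bases between or before fingers.
ZNF75A, chr16:3367456-3367612, plus strand: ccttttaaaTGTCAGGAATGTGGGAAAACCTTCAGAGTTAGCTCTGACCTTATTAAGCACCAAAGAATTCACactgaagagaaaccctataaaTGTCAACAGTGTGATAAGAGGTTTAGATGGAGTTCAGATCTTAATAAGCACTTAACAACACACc
ZNF174, chr16:3458702-3458858, plus strand: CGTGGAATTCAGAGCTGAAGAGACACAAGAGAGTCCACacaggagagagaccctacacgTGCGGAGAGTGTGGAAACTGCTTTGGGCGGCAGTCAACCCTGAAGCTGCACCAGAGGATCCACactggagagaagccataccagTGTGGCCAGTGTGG
ZNF200, chr16:3274059-3274215, minus strand: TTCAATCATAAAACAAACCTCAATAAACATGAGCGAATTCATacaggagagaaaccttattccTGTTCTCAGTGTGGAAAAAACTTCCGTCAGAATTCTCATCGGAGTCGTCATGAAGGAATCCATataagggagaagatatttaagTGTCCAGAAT
ZNF263, chr16:3340094-3340250, plus strand: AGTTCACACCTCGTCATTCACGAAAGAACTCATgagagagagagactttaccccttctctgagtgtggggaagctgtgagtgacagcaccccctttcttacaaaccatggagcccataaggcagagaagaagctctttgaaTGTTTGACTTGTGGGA
All 4 are exonic, within the coding sequence of the last coding exon. Aligned in pairs they were identical at 42.9% (ZNF75A with ZNF174) to 55.9% (ZNF200 with ZNF174) of aligned columns. Unrelated sequences were not aligned for comparison, so what these sites have in common was not tested. GC content was 37.6% in the ZNF75A site, 36.9% in that of ZNF200, 47.8% in that of ZNF263 and 56.1% in that of ZNF174.

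The other genes, ZNF205, ZNF213 and ZNF597, had no site in the last coding exon in any sample. For comparison with the bound exons, the stretch of the same length with the most linkers in each of these exons is shown, marked in the same way. A linker here is the DNA for the residues TGEKP that commonly join neighbouring fingers, searched as ACNGGNGANAANCC on both strands.
ZNF205, chr16:3169593-3169749, plus strand: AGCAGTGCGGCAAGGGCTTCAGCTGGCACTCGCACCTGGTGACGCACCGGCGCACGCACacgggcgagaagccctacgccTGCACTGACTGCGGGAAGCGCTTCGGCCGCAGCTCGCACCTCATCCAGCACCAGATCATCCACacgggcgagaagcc
ZNF213, chr16:3190927-3191083, plus strand: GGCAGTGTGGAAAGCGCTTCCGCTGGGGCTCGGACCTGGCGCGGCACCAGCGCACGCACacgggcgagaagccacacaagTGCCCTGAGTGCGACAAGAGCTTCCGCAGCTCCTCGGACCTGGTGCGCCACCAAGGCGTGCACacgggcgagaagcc
ZNF597, chr16:3487067-3487223, minus strand: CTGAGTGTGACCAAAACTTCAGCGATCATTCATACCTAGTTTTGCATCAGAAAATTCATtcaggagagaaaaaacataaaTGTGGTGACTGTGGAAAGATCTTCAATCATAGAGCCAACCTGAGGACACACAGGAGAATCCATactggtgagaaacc
GC content was 67.5% in the ZNF205 stretch and 68.8% in that of ZNF213, above all 4 bound sites, but 40.8% in that of ZNF597, within their range.

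Site strength is given as normalized tags, the number of sequenced tags at a site scaled to 10000000 tags in the sample. ZNF75A, on the plus strand at chr16:3355406-3368852, held the strongest site of the 7 genes in its last coding exon (chr16:3367190-3367866). It reached 55.3 normalized tags with ethanol (95% interval 46.5 to 65.3, 139 tags) and 52.7 with R1881 (41.5 to 66.1, 75 tags). Both values stood far above the median of all TRIM28 sites, which was 6.40 with ethanol and 7.70 with R1881. At 195th of 58201 sites with ethanol and 230th of 34574 with R1881, the site was within the top 0.335% and 0.665% of its lists.

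ZNF174, on the plus strand at chr16:3451215-3459364, had 46.9 normalized tags in its last coding exon (chr16:3458321-3458916) with ethanol (38.8 to 56.2, 118 tags). With R1881 it had 40.8 (30.9 to 52.7, 58 tags). ZNF200, on the minus strand at chr16:3272325-3286221, had 31.0 (24.5 to 38.7, 78 tags) with ethanol in its last coding exon (chr16:3273895-3274613), and 34.4 (25.5 to 45.5, 49 tags) with R1881. These 2 sites ranked between 233rd and 404th in their lists, a place that follows from how the genes were chosen.

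ZNF263, which lies next to ZNF75A on the plus strand at chr16:3333283-3351401, was bound less. Its site in the last coding exon (chr16:3339393-3340555) had 11.9 normalized tags with ethanol (8.05 to 17.0, 30 tags) and 12.6 with R1881 (7.50 to 20.0, 18 tags). These intervals did not overlap those of the other 3 sites in either condition. Against the surrounding 10 kb, tag density at the ZNF263 site was 13.97-fold higher with ethanol and 12.48-fold with R1881, compared with 66.82-fold and 67.57-fold at ZNF75A. ZNF174 had 45.67-fold and 39.78-fold, and ZNF200 37.6-fold and 40.16-fold.

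**Figure D1:**
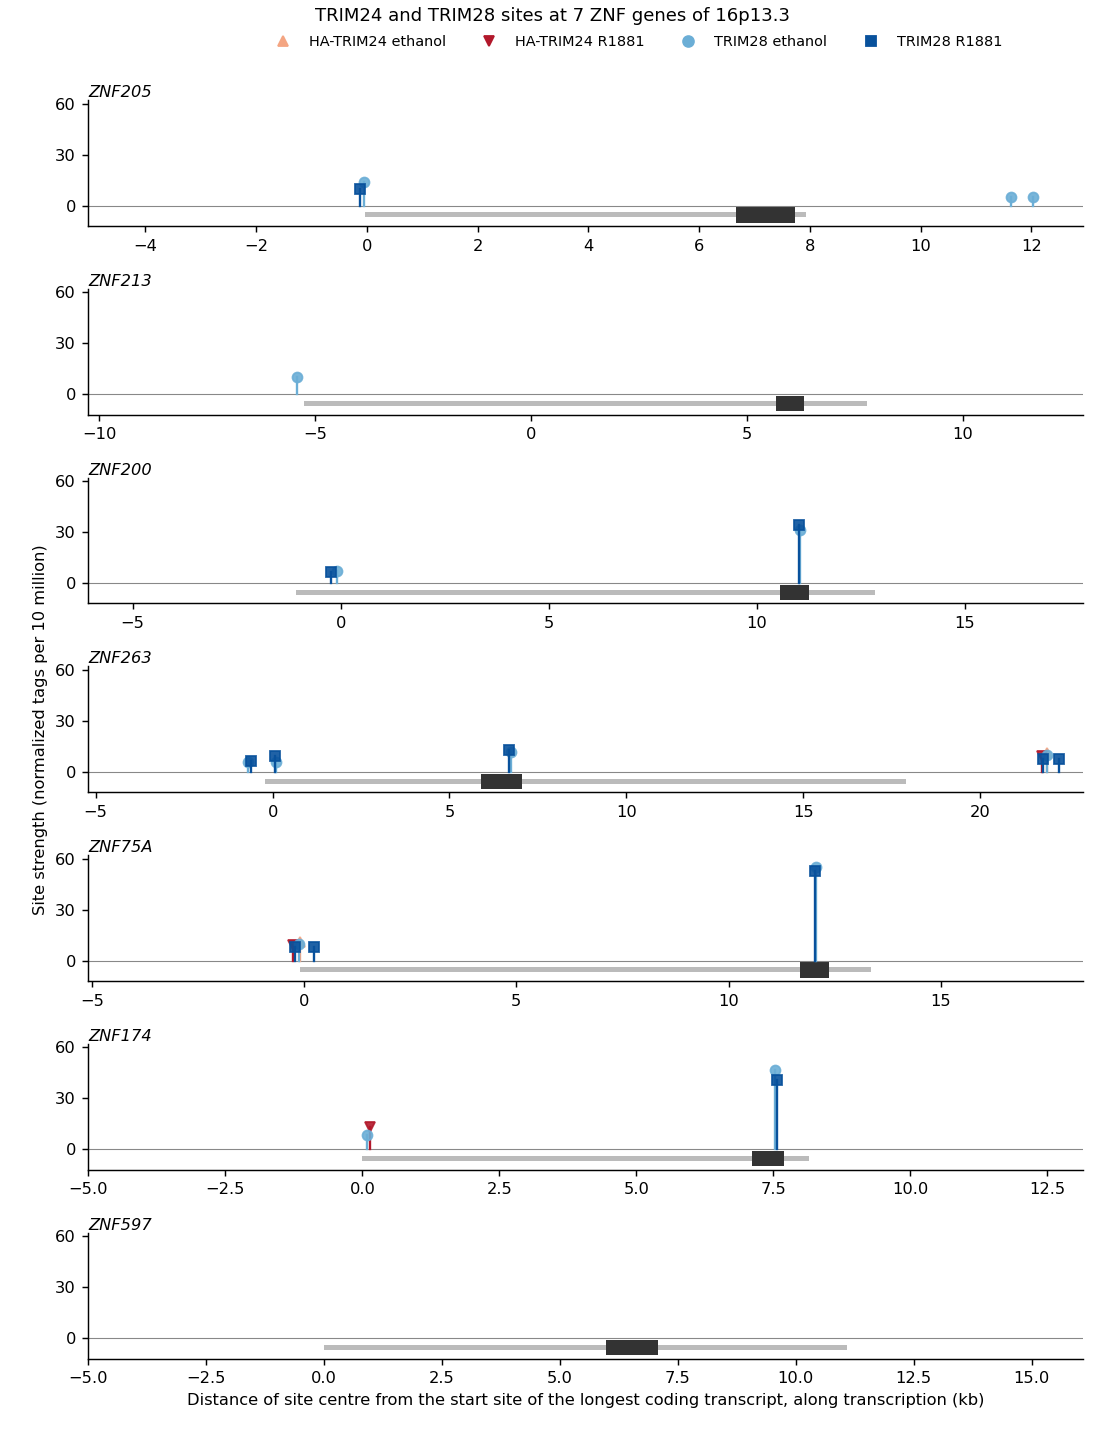
Sites of the 4 samples at each of the 7 genes, plotted as normalized tags per 10000000 (vertical) against distance in kb from the start site of the longest coding transcript, along transcription (horizontal). The grey bar is the gene, the black box its last coding exon, and the view ends 5 kb beyond the gene on each side. The tall TRIM28 pair stands over the black box in ZNF200, ZNF75A and ZNF174, a lower pair does in ZNF263, and ZNF597 has no site. The HA-TRIM24 symbols at the ZNF75A promoter are partly covered by those of TRIM28.

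The last exon sites were thus found in 4 of 7 genes (57.1%) in both TRIM28 samples, and these were the same 4 genes. Across all protein-coding genes, 2.52% had such a site with ethanol and 1.67% with R1881. Since the genes were selected on these sites, nothing is read from that contrast. Among the 509 other genes whose symbols start with ZNF, 31.8% had a last exon site with ethanol and 29.3% with R1881, with a median strength of 9.90 and 11.2 normalized tags at the strongest site of each gene. The corresponding medians of the 4 genes here were 39.0 and 37.6. Among the 51 ZSCAN, ZKSCAN and ZFP genes, 29.4% and 25.5% had one.

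Ranked by their strongest last exon site among the 166 ZNF genes with a site with ethanol, ZNF75A had rank 1, ZNF174 rank 3, ZNF200 rank 6 and ZNF263 rank 65. With R1881, among 153 genes, ZNF75A had rank 2, ZNF174 rank 3, ZNF200 rank 5 and ZNF263 rank 60. ZNF174 and ZNF200 each shared the R1881 value with another gene, and ZNF200 also the ethanol value. The intervals of ZNF75A and ZNF174 overlapped in both conditions, and with R1881 that of ZNF200 overlapped both, so their order among themselves was not resolved there. With ethanol the interval of ZNF200 lay below those of ZNF75A and ZNF174. For ZNF174 the margin was narrow, with an upper end of 38.7 in ZNF200 and a lower end of 38.8 in ZNF174. The other ZNF genes nearest to the median of the 7 genes, by the distance of log2(normalized tags + 1) over the 4 samples, were ZNF567 on chromosome 19, ZNF32 on chromosome 10 and ZNF572 on chromosome 8. The median, 11.9 with ethanol and 12.6 with R1881, equalled the values of ZNF263, so these genes were like ZNF263 and not like the other members. ZNF567, ZNF32 and ZNF572 had 11.1 and 11.9, 10.7 and 12.6, and 11.9 and 11.2.

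**Figure D2:**
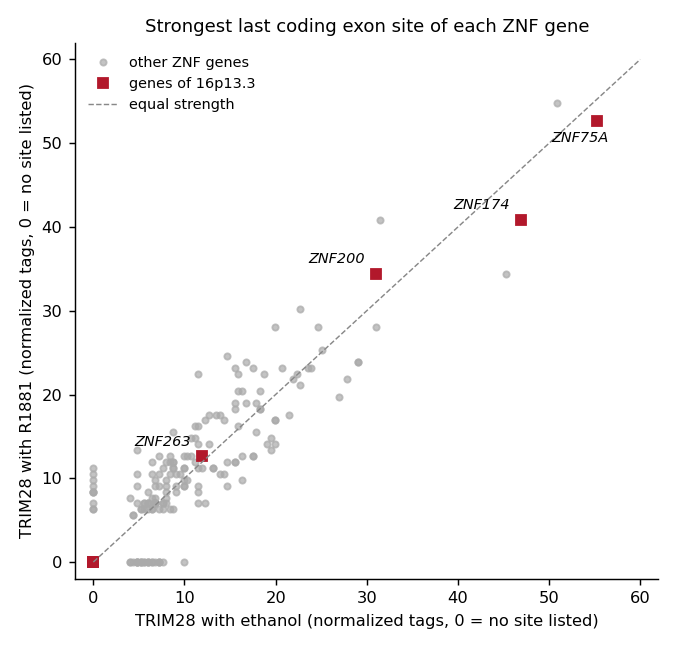
Strongest last coding exon site of each ZNF gene in TRIM28 with ethanol (horizontal) and with R1881 (vertical), in normalized tags per 10000000, with 0 where no site is listed. Red squares are the genes of 16p13.3, of which ZNF205, ZNF213 and ZNF597 lie together at 0, grey points are the other ZNF genes, and the dashed line marks equal strength. ZNF75A, ZNF174 and ZNF200 lie at the upper right and close to the line.

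The question of whether androgen moved TRIM28 at these exons was addressed by the ratio of R1881 to ethanol in normalized tags at sites that overlapped by at least 1 bp. The ratio was 0.953 at ZNF75A (0.710 to 1.27) and 0.870 at ZNF174 (0.623 to 1.20). At ZNF200 it was 1.11 (0.760 to 1.61) and at ZNF263 1.06 (0.557 to 1.96). Each interval includes 1, and with the tags of the 4 sites added together, 200 with R1881 and 365 with ethanol, the ratio was 0.968 (0.811 to 1.15). The spread between cultures, which these intervals leave out, is unknown.

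Their median ratio was 1.01, and that of all 21637 TRIM28 sites found in both conditions was 1.06 (quartiles 0.875 to 1.31). None of the 4 differed by 1.5-fold or more. Of the 9 sites in the windows of the 7 genes that were found in both conditions, 1 was at least 1.5-fold higher with R1881 and 0 were at least 1.5-fold higher with ethanol, against 13.0% and 6.99% of all pairs. The exception was a ZNF263 promoter site, with 5.6 normalized tags with ethanol and 9.1 with R1881. That ratio of 1.62 had an interval of 0.710 to 3.76, so at this depth it could not be told from no change.

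**Figure D3:**
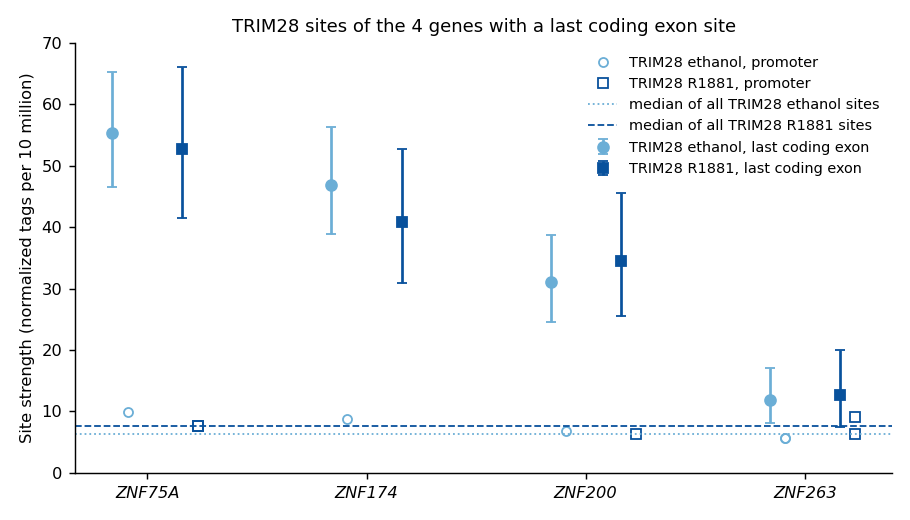
TRIM28 site strength in normalized tags per 10000000 (vertical) at the 4 genes with a last coding exon site (horizontal). Filled symbols are last exon sites with 95% Poisson intervals, open symbols are promoter sites, of which those of ZNF75A with R1881 and of ZNF263 with ethanol are 2 coinciding points, and horizontal lines are the medians of all TRIM28 sites. The ethanol and R1881 intervals overlap at every gene, and ZNF263 lies below the other 3.

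Within the exon, the sites lay over the fingers, with their centres past the middle of the exon. All fingers of the 7 proteins are encoded in the last coding exon. In ZNF75A, with 5 fingers, the site centre was at 53.0% of the exon with ethanol and 50.8% with R1881, and the R1881 site covered fingers 1 and 2 whole. In ZNF174, with 3 fingers, the centres were at 72.1% and 77.0%, and the ethanol site covered fingers 1 and 2 whole. The ZNF200 sites were centred at 67.3% and 66.2%, in finger 3 of 5 in both conditions.

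ZNF263 encodes 9 fingers, and the DNA between fingers 5 and 6 is longer than between most of its other fingers. Its R1881 site was centred there, at 67.0% of the exon, and held no whole finger. The ethanol site, at 71.8%, contained finger 6 whole. Ethanol and R1881 centres lay 8 bp apart in ZNF200, 15 bp in ZNF75A, 29 bp in ZNF174 and 56 bp in ZNF263, which is less than the width of a site (157 bp with R1881, 165 bp with ethanol).

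**Figure D4:**
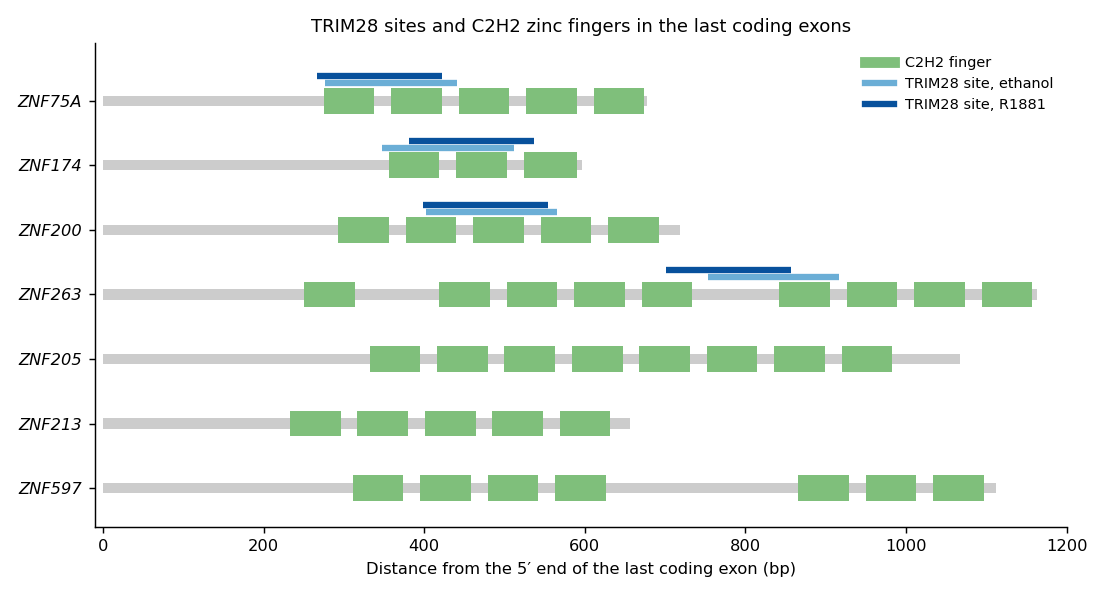
Last coding exons of the 7 genes drawn to scale in bp from the exon's 5′ end (horizontal), 1 gene per row. Green boxes are C2H2 fingers, and the light and dark blue bars are the TRIM28 sites with ethanol and with R1881. The paired bars lie over fingers 1 and 2 in ZNF75A, over fingers 1 and 2 in ZNF174, reaching finger 3 with R1881, over fingers 2 to 4 in ZNF200, and near the gap between fingers 5 and 6 in ZNF263, while the last 3 rows have fingers but no site.

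The number of fingers did not separate bound from unbound exons, since the 4 bound exons encode 5, 3, 5 and 9 fingers (ZNF75A, ZNF174, ZNF200 and ZNF263) and the unbound ones 8 in ZNF205, 5 in ZNF213 and 7 in ZNF597. Nor did exon length, at 677, 596, 719 and 1163 bp in the bound exons and 1067, 656 and 1112 bp in the unbound. GC content of the whole exon was 39.7% in ZNF75A, 52.2% in ZNF174, 41.9% in ZNF200 and 51.5% in ZNF263. It was 68.8% in ZNF205 and 68.6% in ZNF213, which hold 92 and 63 CpG dinucleotides against 5 to 28 in the bound exons. ZNF597, with 44.1% and 19 CpG dinucleotides, lay within the range of the bound exons on both measures and had no site.

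Linkers were no more frequent in the bound exons. ZNF75A and ZNF174 had 1 match each in the coding strand of the exon, ZNF200 had 2 and ZNF263 had 4, compared with 4 in ZNF205, 3 in ZNF213 and 1 in ZNF597. Within the R1881 sites, those of ZNF200 and ZNF174 held 1 match each and those of ZNF75A and ZNF263 none. Across all TRIM28 sites with R1881, 0.583% held a match, whereas 136 of the 178 sites in last coding exons of ZNF genes did (76.4%). ZNF last exons with an R1881 site had a median of 7 matches (quartiles 4 to 9), above the count in each of the 4 bound exons here, of which ZNF263 equalled the lower quartile and the others lay under it. ZNF last exons without a site had a median of 2 (quartiles 0 to 6).

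Part of the ZNF75A site has a near copy elsewhere, in its paralogue ZNF75D on the X chromosome. The best other match of the printed sequence in the genome, chrX:134421367-134421512, was 93.8% identical over 146 bp, with a longest identical run of 36 bp. TRIM28 sites were also listed there, with 12.3 normalized tags with ethanol and 7.0 with R1881, so the share of tags placed at each copy is uncertain. For the ZNF200 site the best other match, in ZNF568 on chromosome 19, was 79.8% identical over 89 bp. For the ZNF174 site it was 77.6% over 134 bp, in ZKSCAN2 on the same chromosome, and no TRIM28 site was listed at either place. The ZNF263 sequence had no other match at an expectation value of at most 1e-05.

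Promoters of the 7 genes, taken as 2 kb on either side of an annotated start site, carried weaker TRIM28 sites. A promoter site was found with ethanol in 6 of the 7 genes, beside 56.3% of all protein-coding genes and 74.3% of the other ZNF genes. With R1881 it was found in 4 of 7, beside 37.4% and 47.9%. The strongest was at ZNF205 (chr16:3162561-3170518), with 13.9 normalized tags with ethanol (9.70 to 19.4, 35 tags) and 9.8 with R1881 (5.38 to 16.5, 14 tags), a ratio of 0.705 (0.351 to 1.35).

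ZNF213 (chr16:3179778-3192805) had a site of 10.3 (6.75 to 15.2, 26 tags) with ethanol, 178 bp upstream of its nearest start site, and ZNF174 one of 8.7 (22 tags). Neither was listed with R1881. At the depth of the R1881 sample, which had 0.566 times the tags of the ethanol sample, the same density would give 14.7 and 12.5 tags. The reported threshold of the R1881 sample was 9 tags, besides 4-fold over the local region. Whether depth accounts for the missing sites was not tested. No R1881 site lay within 500 bp of either. ZNF200 had 6.8 with ethanol and 6.3 with R1881, a ratio of 0.926 (0.367 to 2.22). ZNF263 had 2 promoter sites of 5.6 each with ethanol and of 6.3 and 9.1 with R1881. The promoter of ZNF75A, which is shared with the gene TIGD7 on the other strand, had 9.9 with ethanol and 2 sites of 7.7 with R1881. These values for ZNF200, ZNF263 and ZNF75A, 5.6 to 9.9, lie on both sides of the medians of their lists, 6.40 with ethanol and 7.70 with R1881. The ZNF75A last exon site also lies within 2 kb of the start of a shorter transcript of that gene and was not counted as its promoter site here.

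The last exon sites can also be set against the promoters of the same genes. The genes were selected on strong last exon sites, so a high factor is set by that choice, and these values are a description with no test. With ethanol the exon had 5.59 times the promoter's tags in ZNF75A (3.61 to 8.89), 5.39 times in ZNF174 (3.38 to 8.88), 4.56 times in ZNF200 (2.69 to 8.27) and 2.12 times in ZNF263 (1.10 to 4.37). With R1881 the factors were 6.84 in ZNF75A (3.60 to 14.2), 5.46 in ZNF200 (2.65 to 12.6) and 1.38 in ZNF263 (0.641 to 3.07). ZNF174 had no promoter site with R1881 and so no factor. Among other ZNF genes with both kinds of site, the median factor was 1.39 with ethanol (124 genes) and 1.62 with R1881 (79 genes). The exon was the stronger in 68.5% and 79.7% of those genes.

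HA-TRIM24 was not listed in any last coding exon of the 7 genes, nor in that of any other ZNF gene. Such sites were rare throughout, in 0.178% of all protein-coding genes with ethanol and 0.387% with R1881, so nothing is read from their absence. HA-TRIM24 had 1 site in the windows of the 7 genes with ethanol and 2 with R1881, all at promoters, while TRIM28 had 13 and 10 sites in the windows. The ZNF75A promoter had 11.2 normalized tags of HA-TRIM24 with ethanol (5.96 to 19.2, 13 tags) and 9.3 with R1881 (4.81 to 16.3, 12 tags). The ZNF174 promoter had 13.2 (7.69 to 21.1, 17 tags) with R1881 and no site with ethanol. That site also lay within 2 kb of a start site of the neighbouring gene ZSCAN32, on the other strand. A promoter site in 1 and then 2 of 7 genes stands beside 10.6% of all protein-coding genes with ethanol and 18.4% with R1881, and beside 13.9% and 27.3% of the other ZNF genes.

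At the ZNF75A promoter the HA-TRIM24 site overlapped the TRIM28 site of the same treatment, by 138 bp with ethanol and 118 bp with R1881. At the ZNF174 promoter the HA-TRIM24 site with R1881 overlapped the TRIM28 site with ethanol by 95 bp, and no TRIM28 site was listed there with R1881. No HA-TRIM24 site overlapped the strong last exon sites of ZNF75A and ZNF174.

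ZNF597 (chr16:3482414-3493504), on the minus strand at the far end, had no site of either protein within 5 kb in any sample. By comparison, 73.8% of all protein-coding genes had a TRIM28 site in a window of that kind with ethanol and 58.0% with R1881. For HA-TRIM24 the shares were 16.7% and 28.4%, so nothing is read from its absence. ZNF205 had, besides its promoter, 2 TRIM28 sites of 5.2 normalized tags each beyond its 3′ end with ethanol. Counted from the strongest, they stood at 74.5% of that list, between its median of 6.40 and its lowest value of 4.0. The window edge left out sites 5.95 to 5.99 kb upstream of ZNF205, with 7.0 normalized tags for HA-TRIM24 with R1881, and 7.6 and 9.8 for TRIM28 with ethanol and R1881. It also left out sites about 7.8 kb downstream of ZNF213, where HA-TRIM24 had 35.3 with ethanol and 75.3 with R1881 and TRIM28 had 13.5 and 10.5.

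The interval from the first window to the last also holds 8 other protein-coding genes, in whole or in part. ZSCAN32, a SCAN zinc finger gene between ZNF75A and ZNF174, also had a TRIM28 site in its last coding exon, with 36.2 normalized tags with ethanol (91 tags) and 23.2 with R1881 (33 tags). Its ratio of 0.641 (0.417 to 0.964) lay past 1.5-fold towards ethanol, as did 6.99% of all pairs. The interval left out 1 but overlapped those of the 4 genes described, and it covers counting error only. By fold over the local region the ratio was 0.809. The ZSCAN32 promoter also had the HA-TRIM24 site of 13.2 with R1881 given above for ZNF174. NAA60, which encodes an acetyltransferase, had promoter TRIM28 sites of 13.1 with ethanol and 7.7 with R1881, and an HA-TRIM24 site of 9.3 with R1881. The olfactory receptor gene OR1F1 overlaps the ZNF200 last exon site, and the gene models ENSG00000290183 and ENSG00000285329 overlap those of ZNF263 and ZNF174, so these sites are within the bodies of those genes too. With TIGD7, these are the neighbours that shared a site with the 7 genes or held one as strong as that of ZNF263, and 2 neighbours had no site.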

How the data were processed

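LNCaP ChIP-seq sites were taken from the 4 deposited lists, 1 per sample. The authors aligned reads to hg19 with BWA (version 0.6.1) and called sites per sample with HOMER (version 4.1) in factor mode, with no input library in the command, at a false discovery rate of 0.001, at least 4-fold over the surrounding 10 kb and a local Poisson p of at most 1e-04, counting at most 1 tag per base. The deposited signal is the normalized tag count per 10000000 tags. The deposited score is HOMER's own, and the deposited fold ratio compares tag density with the local region. Deposited p-values were not used.

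Total tags were 11606880 and 12884097 for HA-TRIM24 (ethanol, R1881) and 25145171 and 14231181 for TRIM28. The lists held 5232, 9363, 58201 and 34574 sites, and how far these counts depend on depth was not tested. The reported tag thresholds at the false discovery rate were 9, 9, 12 and 9, or 7.75, 6.99, 4.77 and 6.32 normalized tags. The lowest listed sites had 6.0, 5.4, 4.0 and 5.6 normalized tags, so each list holds sites below its threshold by this measure. Matching of read totals by random picking, given in the methods, does not show in these totals. Tags per site were recovered from signal and total, and came out whole at 100% of sites (tolerance at most 0.126 tags). They are reads without molecular identifiers.

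Genes came from GENCODE release 44 on GRCh37, using the longest coding transcript. A site was placed in a last coding exon or window by an overlap of at least 1 bp, and at a promoter by its centre within 2 kb of any start site. Fingers were found in the translated GRCh37 sequence, linkers in its DNA on both strands, and near copies with BLAST+ (version 2.17.0). Intervals came from scipy (version 1.17.1) and pairwise alignments from Biopython (version 1.88). The interval and overlap code was tested on simulated data. With 1 sample per condition there was no test. Genes and lists were chosen with earlier results of these data known. Named genes were the 7, interval neighbours that share a site or hold one as strong as the weakest last exon site, and the 3 ZNF genes nearest to the median of the 7. ZNF75D, ZNF568 and ZKSCAN2 were named after the sequence search. Flanks, promoter width, exon choice, overlap rule, site strength and scaling were varied.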

Additional observations from a re-analysis of the deposited data

Results flagged for a closer look

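The number of HA-TRIM24 sites in the windows of the 7 genes was 1 with ethanol and 2 with R1881, a log2 ratio of 1.00, while that of TRIM28 sites was 13 and 10, a log2 ratio of -0.379. These signs are opposite, with 1 sample per condition, and the difference was not tested. The whole lists differ in the same directions, with 5232 and 9363 sites for HA-TRIM24 (1.79 times) and 58201 and 34574 for TRIM28 (0.594 times), as do total tags, 11606880 and 12884097 for HA-TRIM24 and 25145171 and 14231181 for TRIM28. Neither sign held under every setting. When sites under 6.0 normalized tags, the highest of the lowest values of the 4 lists, were left out, TRIM28 had 9 sites with ethanol and 10 with R1881, and without a flank HA-TRIM24 had 1 site in each condition.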

How the results depend on the processing

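Of 49 alternatives to the 9 values that describe the 7 genes, 46 left the value within 1.5 times, or within the counting interval for the ratio. The 3 others concern the HA-TRIM24 sites in the windows, which are few. With no flank the R1881 count was 1 in place of 2, and with a flank of 10 kb the counts were 4 with R1881 in place of 2 and 2 with ethanol in place of 1. The wider flank takes in the strong sites downstream of ZNF213. The genes with a last exon TRIM28 site numbered 4 under each alternative for exon, overlap and strength, in both conditions. Since the 7 genes were chosen for strong last exon sites, the strength settings are no test of this number. The median ratio of R1881 to ethanol at these sites ranged from 0.952 (fold over the local region) to 1.11 (HOMER score per total tags), on both sides of 1. No paired analysis was possible because each condition has 1 sample, and no replicate could be left out. Depth limits weak sites first: 1 tag is worth 0.398 normalized tags in TRIM28 with ethanol and 0.703 to 0.862 in the other samples. The 2 ethanol sites beyond the 3′ end of ZNF205 would have 7.36 tags each at the R1881 depth. That is under the threshold of 9, although the R1881 list also holds sites below it. Whether depth accounts for their absence with R1881 was not tested.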

Other observations

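Most HA-TRIM24 sites between the first and last of these genes lay in the stretch of 69.5 kb between the windows of ZNF213 and ZNF200 (chr16:3197806-3267324), which is known for its tRNA genes. It held 10 of the 11 HA-TRIM24 sites of the interval with ethanol and 12 of 14 with R1881. Their strength had a median of 16.4 normalized tags with ethanol (7.8 to 35.3) and 27.1 with R1881 (12.4 to 75.3). Of the 12 R1881 sites, 9 were also listed with ethanol, and 9 of these 9 were higher with R1881, with a median ratio of 2.0 (1.14 to 2.69). Over all 2488 HA-TRIM24 sites with R1881 that were also listed with ethanol, 45.9% were higher with R1881, and the median ratio was 0.979 (quartiles 0.807 to 1.26). TRIM28 had 10 sites there with ethanol (4.8 to 13.5) and 9 with R1881 (7.0 to 11.2), and 7 of the 12 HA-TRIM24 sites with R1881 overlapped one, where 50.1% of all 9363 HA-TRIM24 sites with R1881 overlapped a TRIM28 site with R1881. These sites were singled out after their values were seen, and no difference was tested.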
